A study of Homo sapiens with 5 samples.

Results

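The genes that encode the subunits of Mediator and Integrator were examined for called transcription start sites in HUDEP-2 cells, a human erythroid progenitor line. Members were the protein-coding RefSeq genes (GRCh38.p14) with a symbol made of MED or INTS and a number, together with MED12L, MED13L, CDK8, CDK19 and CCNC. They numbered 48 of the 19974 protein-coding genes on chromosomes 1 to 22 and X, 33 of Mediator and 15 of Integrator. INTS6L, a paralogue of INTS6 that the rule does not name, is described beside them but not counted.

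PRO-seq, which captures and sequences RNA labelled with biotin by engaged RNA polymerases, was performed in 3 clones edited with the guide sg1617 at the BCL11A enhancer and in 2 libraries of wild-type HUDEP-2 cells. The edited clones carried a 1 bp insertion, a 13 bp deletion or a 15 bp deletion, each grown from a single cell and represented by 1 library. The values used here are positions in 2 strand-specific lists of start sites from 1 alignment, with no column per library, so edited cells could not be compared with wild-type cells. The lists come without replicates, the name of their alignment matches no sample title, the number of reads behind a call is unknown, and the intervals below cover counting over genes or calls only. The lists held 28283 calls, 28159 of them on chromosomes 1 to 22 and X. The erythroid markers GATA1, KLF1, ALAS2, SLC4A1, EPOR, TFRC and HBB were each called at a gene end, whereas 0 of 13 lymphocyte, myeloid and hepatocyte markers were (Wilson 95% interval up to 22.8%).

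Mediator is a large complex that carries signals from DNA-bound transcription factors to RNA polymerase II at promoters. Its head and middle modules contact the polymerase, its tail receives most activators, MED14 holds the modules together, and a detachable kinase module formed by MED12, MED13, cyclin C and CDK8, or their paralogues, limits the access of the polymerase. Integrator is a complex with an RNA endonuclease and a bound protein phosphatase, PP2A. It cleaves the 3′ ends of small nuclear RNAs and ends transcription by polymerases paused near promoters.

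Nearly every member had a promoter call, and the 4 that had none were the 4 MED12 and MED13 genes of the kinase module. A gene counted as having a promoter call when a forward call lay at most 500 bp from its left end, or when its right end had a reverse call at most 500 bp away. By this rule 44 of 48 members were called (91.7%, Wilson 95% interval 80.4 to 96.7%), beside 42.2% of all protein-coding genes. With the limit at 100 bp the members numbered 42 of 48 (87.5%), beside 37.1% of all genes. At that limit MED14, outside the kinase module, and CCNC, within it, were no longer called. Their nearest calls lay 275 bp outside and 153 bp inside the gene end. A call of either strand anywhere in the gene, or at most 500 bp outside it, was present for 47 of 48 members, beside 53.7% of all genes. All 15 Integrator genes were called (interval from 79.6%), as were 29 of 33 Mediator genes (87.9%, interval 72.7 to 95.2%). Within Mediator the call was present in 7 of 7 head, 9 of 9 middle and 5 of 5 tail genes, in MED14, and in MED27, MED28, MED29 and MED30, which different structures place in the head or the tail. In the kinase module CDK8, CDK19 and CCNC were called, and MED12, MED12L, MED13 and MED13L were not, so that 3 of 7 genes had a promoter call (42.9%, interval 15.8 to 75.0%). Outside the kinase module 41 of 41 members were called at the limit of 500 bp (interval from 91.4%), but not all of them at 100 bp. No test of this difference was made, because the members were chosen with earlier results of these data known.

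**Figure D1:**
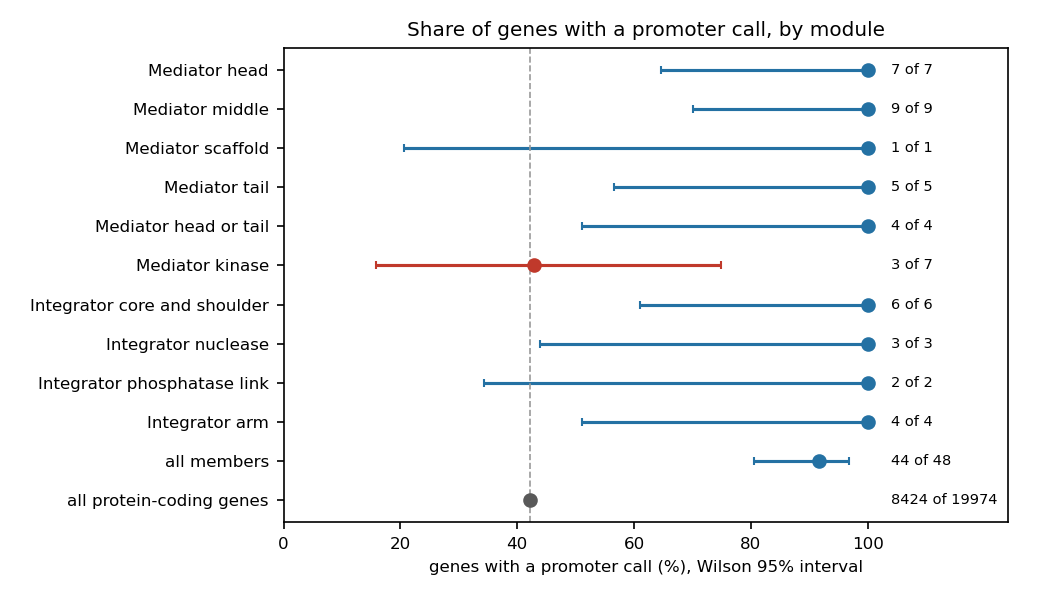
Share of genes with a promoter call in each module of Mediator and Integrator, in all 48 members and in all 19974 protein-coding genes. Points are percentages of genes on the x axis, bars are Wilson 95% intervals, the counts stand on the right, and the dashed line marks the 42.2% of all protein-coding genes. The kinase module, in red, lay at 42.9%, and every other module lay at 100%.

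Windows of 300 bases around the annotated starts of uncalled members are shown first, because the results turn on the absence of a call on the strand of the gene in them. They run from 250 bases before the start to 50 bases from it, come from RefSeq (GRCh38.p14), and have the annotated start base in capitals. MED13 had no entry in the promoter table.
MED12, chrX:71118346-71118645, forward strand: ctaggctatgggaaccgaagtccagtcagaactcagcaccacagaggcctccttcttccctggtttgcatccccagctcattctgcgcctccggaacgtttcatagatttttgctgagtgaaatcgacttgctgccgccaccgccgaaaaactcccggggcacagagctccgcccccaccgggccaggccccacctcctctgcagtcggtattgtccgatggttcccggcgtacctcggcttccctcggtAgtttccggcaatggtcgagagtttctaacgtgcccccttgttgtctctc
MED12L, chr3:151085414-151085713, forward strand: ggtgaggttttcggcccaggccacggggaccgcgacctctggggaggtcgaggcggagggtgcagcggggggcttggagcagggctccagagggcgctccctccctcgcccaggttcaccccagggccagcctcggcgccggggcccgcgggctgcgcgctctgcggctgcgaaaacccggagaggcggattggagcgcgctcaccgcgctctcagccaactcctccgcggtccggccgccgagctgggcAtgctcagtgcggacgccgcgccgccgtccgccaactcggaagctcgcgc
MED13L, chr12:116277644-116277943, reverse strand: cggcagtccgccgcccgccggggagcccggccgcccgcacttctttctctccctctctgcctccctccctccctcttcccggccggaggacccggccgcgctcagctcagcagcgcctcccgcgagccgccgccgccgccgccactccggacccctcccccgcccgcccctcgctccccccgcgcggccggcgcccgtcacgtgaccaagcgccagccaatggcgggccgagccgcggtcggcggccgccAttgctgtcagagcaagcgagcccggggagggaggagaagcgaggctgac

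The windows of MED12 and MED12L lay within the range of called members in GC content, and that of MED13L lay just above it. MED12, MED12L and MED13L had a GC content of 59.0%, 75.3% and 78.3%, and 20, 39 and 43 CpG dinucleotides. The windows of called members ranged from 47.0% to 77.3% GC, with a median of 61.7%, and held 14 to 45 CpGs. Among all protein-coding genes whose windows held 33 to 69 CpGs, 2187 of 3611 were called (60.6%), and among those with 9 to 22 CpGs 1978 of 4168 (47.5%). The MED12 and MED13 genes also differ in length. MED12L (350990 bp) and MED13L (319118 bp) were the only members over 300 kb long, a class in which 173 of 771 protein-coding genes were called (22.4%), whereas MED12 measured 23855 bp. In the class of MED13 (122674 bp), 100 to 300 kb, 40.8% of protein-coding genes and 6 of 7 members were called. In that of MED12, 10 to 30 kb, 47.3% of protein-coding genes and 13 of 14 members were called. The part of length or base composition in the missing calls was not tested.

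MED12, the subunit that activates the kinase, lies on the forward strand of the X chromosome from 71118596 to 71142450 (gene ID 9968). It had 0 forward calls and 2 reverse calls. The first, at 71118508, lay 88 bp upstream of the start, and the second, at 71119152, lay 556 bp inside the gene. Calls of the opposite strand were thus present on both sides of the MED12 start without a call on its own strand, and the nearest forward call outside the gene was 22.4 kb away on its left.

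MED12L, the paralogue of MED12, lies on chromosome 3 from 151085664 to 151436653 (gene ID 116931). It was the only member with 0 calls on either strand, from 500 bp outside one end to 500 bp outside the other. The nearest call on either side lay 322 kb to the left at 150763610, and the nearest on the right lay 762 kb away.

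MED13, which links the kinase to the rest of Mediator, lies on chromosome 17 from 61942605 to 62065278 (gene ID 9969), and its orientation was not in the tables used. Both calls near it lay around its right-hand end. A reverse call at 62065970 lay 692 bp beyond that end, outside the 500 bp window, and inside the gene, 1047 bp from that end, was a forward call at 62064231, so that the calls pointed at each other across 1739 bp. With a window of 1000 bp the reverse call counted and MED13 joined the called members, which then numbered 45 of 48 (93.8%).

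MED13L, the paralogue of MED13, lies on the reverse strand of chromosome 12 from 115958576 to 116277693 (gene ID 23389). Its single call, at 116197082, was on its own strand but 80.6 kb inside the gene, and no start in the promoter table lies there. The kinase CDK8 and its paralogue CDK19 differed from each other as well. CDK8 had 1 call in 151110 bp, 15 bp downstream of its start and with no divergent partner, and CDK19 had 5 calls. Of the CDK19 calls, 2 were on its own strand, and 3 lay inside the overlapping gene AMD1 on the other strand.

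**Figure D2:**
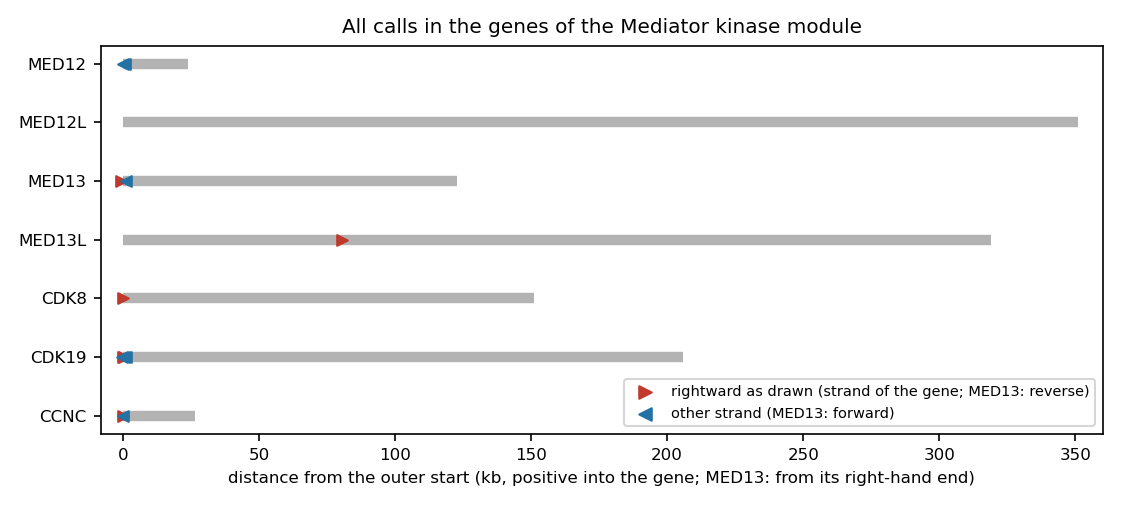
All calls in or near the 7 genes of the kinase module. Grey bars are the genes, the x axis is the distance from the outer start in kb, red arrowheads are calls on the strand of the gene and blue arrowheads calls on the other strand. MED13 is drawn from its right-hand end with reverse calls in red. MED12L carries no call, and MED13L carries 1 call at 80.6 kb. The calls of MED13 lie around its right-hand end, and those of the remaining genes lie near the start.

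The base that was called was examined next, since promoter sequence allows the position of the lists to be checked. Most human start sites are a purine preceded by a pyrimidine, often the step CA with the start at the A. Taken as deposited, with the end coordinate of each 1-base interval as the position, the called base was such a purine in 8 of 33 member calls that lie in a promoter window (24.2%, interval 12.8 to 41.0%). At the next base downstream along the strand the share was 14 of 33 (42.4%, interval 27.2 to 59.2%). Over all promoter windows the same shares were 2618 of 8160 calls (32.1%) at the called base and 3585 of 8146 (44.0%) at the next base. The step CA ended at the called base in 0 of 33 member calls and at the next base in 8 of 33 (24.2%), beside 1.51% and 33.7% over all promoter windows. The difference had the same direction along transcription on both strands. Among all promoter windows, the base to the right of forward calls had a pyrimidine-purine step in 43.3%, and the base to the left of reverse calls in 44.9%. A call in these lists thus lay most often 1 base upstream of the purine, and where this held an offset of -1 bp put the purine on the annotated start. Offsets are given as deposited.

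**Figure D3:**
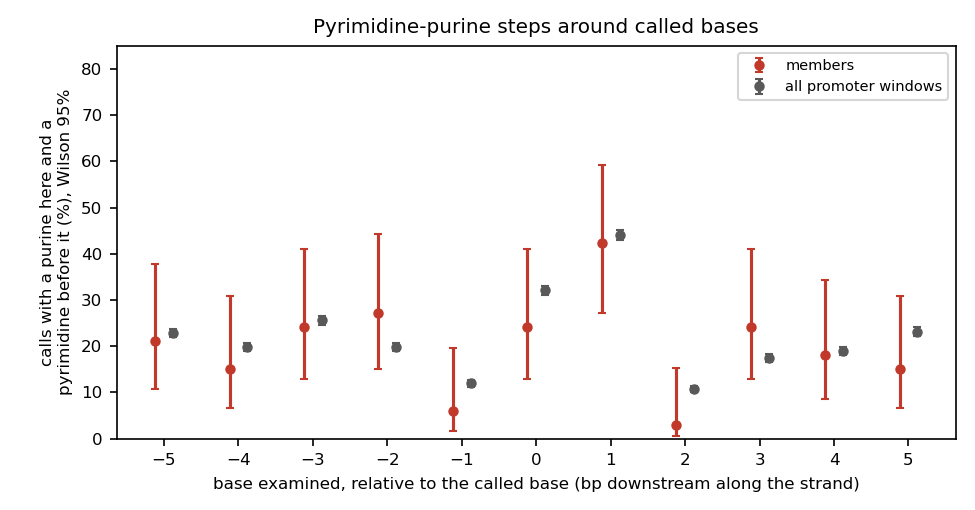
Percentage of calls with a purine at the base examined and a pyrimidine before it, against the distance of that base from the called base in bp along the strand. Red points are the 33 member calls in promoter windows, grey points all calls in promoter windows, and bars are Wilson 95% intervals. The highest share lay 1 base downstream of the called base in both sets, at 42.4% for members and 44.0% for all windows.

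The 8 member calls with the step CA are printed because they show this register. Each line covers 20 bases before and 20 bases after the called base, and the capitals mark the called base and the base that follows it.
MED11, chr17:4731407-4731447, forward strand: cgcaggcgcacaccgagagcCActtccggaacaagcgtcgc
MED16, chr19:893168-893208, reverse strand: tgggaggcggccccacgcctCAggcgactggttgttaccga
MED19, chr11:57712193-57712233, reverse strand: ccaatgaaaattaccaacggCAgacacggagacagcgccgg
MED25, chr19:49818268-49818308, forward strand: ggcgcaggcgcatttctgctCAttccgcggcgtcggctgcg
CDK19, chr6:110815450-110815490, reverse strand: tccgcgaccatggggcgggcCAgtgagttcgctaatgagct
INTS2, chr17:61927963-61928003, reverse strand: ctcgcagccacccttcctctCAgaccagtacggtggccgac
INTS11, chr1:1324639-1324679, reverse strand: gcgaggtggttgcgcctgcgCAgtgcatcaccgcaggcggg
INTS15, chr7:6590000-6590040, forward strand: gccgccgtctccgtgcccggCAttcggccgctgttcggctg

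In 6 of these 8 windows (MED11, MED16, MED25, CDK19, INTS2 and INTS15) the called base lay 1 bp upstream of an annotated start, so that the A of CA was the annotated start itself. In INTS11 and MED19 the offset was 1 and 2 bp. Other members had other letters. The called base and the next read CG in 6 calls (CCNC, INTS1, INTS6, INTS12, MED9 and MED15) and AG in 4 (MED10, MED20, MED27 and MED29).

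Promoter calls of members lay close to the annotated gene ends. The offset, positive into the gene, had a median of 3 bp with quartiles at -1 and 15.8 bp over 44 called members, beside a median of 3 bp and quartiles at -1 and 27 bp over 8424 called protein-coding genes. An offset of at most 3 bp either way was found in 20 of 44 members (45.5%) and in 37.7% of all called genes, and an offset of at most 50 bp in 40 of 44 (90.9%) and in 80.4%. Integrator offsets lay between -1 and 46 bp. The 4 members beyond 50 bp were all of Mediator, namely MED14 at -275 bp, MED20 at 51 bp, MED23 at 81 bp and CCNC at 153 bp.

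**Figure D4:**
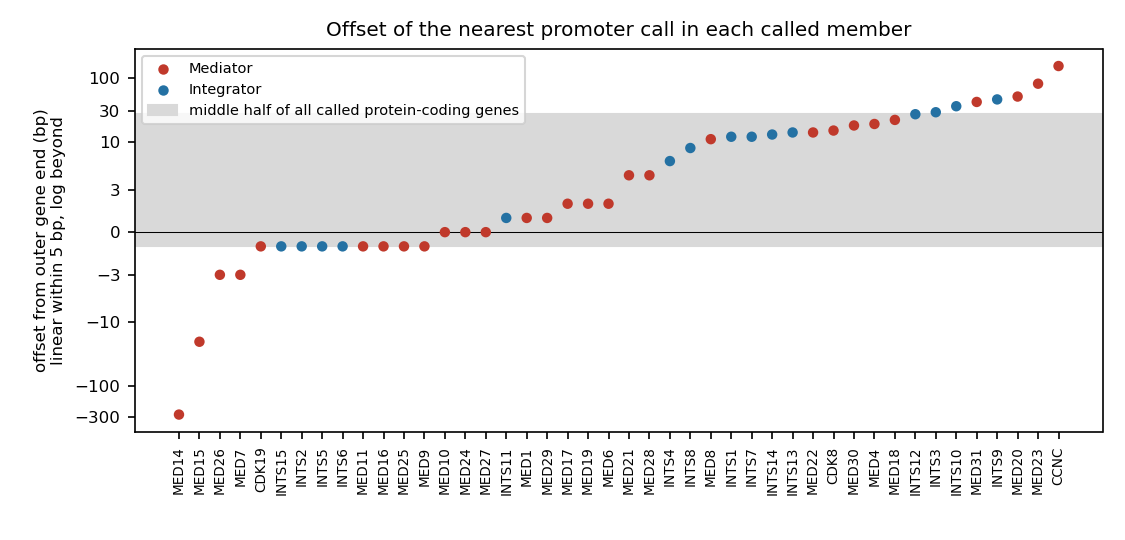
Offset of the promoter call nearest to the outer gene end in each of the 44 called members, in bp on an axis that is linear within 5 bp and logarithmic beyond, sorted from left to right. Red points are Mediator genes, blue points Integrator genes, and the grey band spans the quartiles of all called protein-coding genes, -1 to 27 bp. Apart from MED14 at -275 bp, the points lie between -20 and 153 bp.

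In CCNC, CDK19 and INTS13 a call lay on an annotated start inside the outer end of the gene, whereas the MED20 and MED23 calls were not within 50 bp of a start in the promoter table. CCNC, which encodes cyclin C, has annotated starts at 99568814 and 99568660 on the reverse strand of chromosome 6. Its only call on that strand, at 99568661, lay 1 bp upstream of the inner start, and there was no call within 50 bp of the outer one. CDK19 has 3 annotated starts, at 110815855, 110815637 and 110815469 on chromosome 6. Its calls at 110815856 and 110815470 each lay 1 bp upstream of the first and the third of these, and the second start had no call on its strand. INTS13, a subunit of the module that also holds INTS10 and INTS14, was called at 26938318, 14 bp inside its outer end on chromosome 12, and at 26937981, which is exactly the start in the promoter table. These inner starts, and the outer start of CDK19, had the following letters, with capitals as before.
CCNC, chr6:99568641-99568681, reverse strand: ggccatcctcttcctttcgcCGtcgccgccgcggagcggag
CDK19, chr6:110815836-110815876, reverse strand: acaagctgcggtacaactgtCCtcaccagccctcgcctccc
INTS13, chr12:26937961-26938001, reverse strand: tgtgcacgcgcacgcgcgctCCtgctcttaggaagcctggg

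One call in the sense direction was the rule. It held for 39 of the 44 called members, counting calls inside the gene or up to 500 bp upstream. The other 5, CDK19, INTS2, INTS6, INTS13 and MED14, had 2 each, 5 of 44, beside 26.7% of all protein-coding genes called at 1 end. No member had more than 2. After merging of calls closer than 500 bp, the number of members with more than 1 was 2. The 26.7% is for calls before merging, so it cannot be set beside this count. INTS2, a backbone subunit, had calls at 61927983 and 61927559 on chromosome 17, 1 bp upstream and 423 bp downstream of its start. MED14 on the X chromosome had reverse calls at 40736434 and 40735848, 275 bp beyond its right-hand end and 311 bp inside it, with a forward call at 40736023 between them. That forward call lies 333 bp inside the lncRNA gene MED14OS, which starts within MED14 on the forward strand.

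INTS6, which ties PP2A to Integrator, and its paralogue INTS6L shared the order of their promoter call and inner calls, but not a divergent partner upstream. INTS6 on chromosome 13 was called 1 bp upstream of its start, and had a second sense call 1503 bp inside the gene and an antisense call 1025 bp inside it. INTS6L on the X chromosome was likewise called 1 bp upstream of its start, with a sense call at 1353 bp and an antisense call at 975 bp. In each gene the inner calls formed a divergent pair, 478 bp apart in INTS6 and 378 bp apart in INTS6L. The share of all genes with such an inner pair was not counted. The promoter call of INTS6 had a divergent partner 308 bp upstream, at 51453345, which is the annotated first base of the lncRNA gene INTS6-AS1. The promoter call of INTS6L had none.

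**Figure D5:**
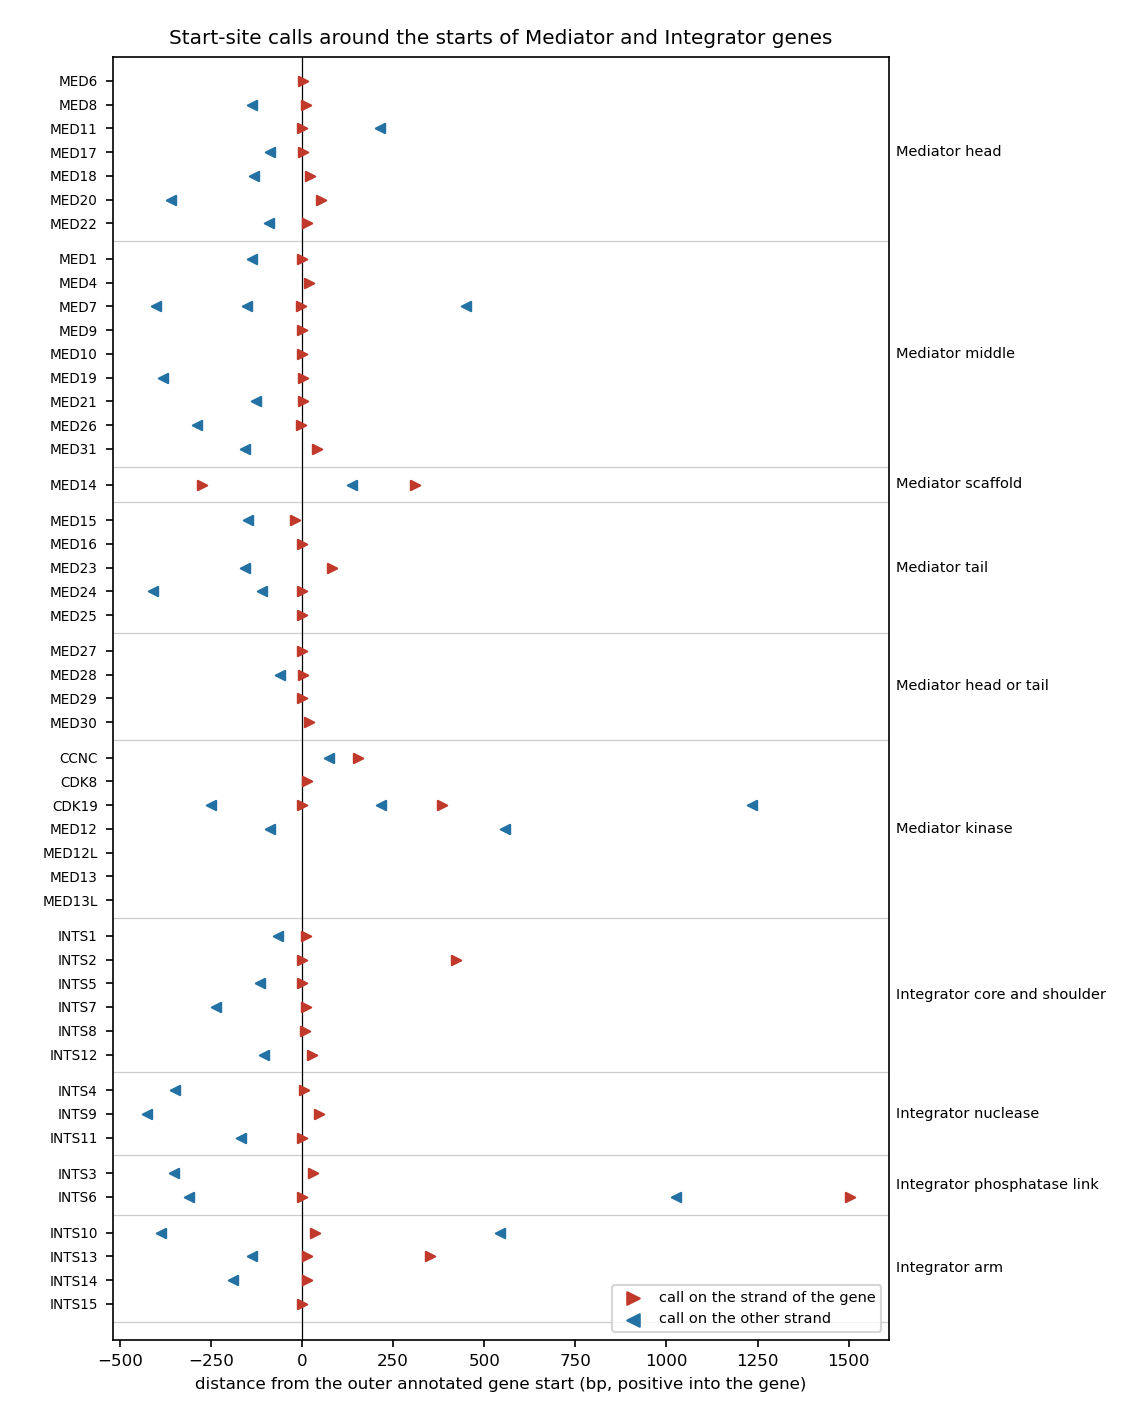
Calls around the outer start of each member, one line per gene and grouped by module, with the distance in bp on the x axis. Red arrowheads are calls on the strand of the gene and blue arrowheads calls on the other strand. Red arrowheads gather at 0, most blue ones lie 61 to 426 bp upstream, and the lines of MED12L, MED13 (not placed, since its orientation was not in the tables used) and MED13L are empty. Calls beyond the axis, in INTS4, INTS5 and MED13L, are not drawn.

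Divergent calls accompanied members at about the share of all called genes. At most 1000 bp upstream of the promoter call, 29 of 44 called members had a call in the opposite direction (65.9%, interval 51.1 to 78.1%), beside 66.0% of all called protein-coding genes. The distance had a median of 153 bp and ran from 65 to 472 bp, beside a median of 176 bp over all called genes. The share was 17 of 29 Mediator genes (58.6%, interval 40.7 to 74.5%) and 12 of 15 Integrator genes (80.0%, interval 54.8 to 93.0%), with overlapping intervals. The shortest spacing was that of MED28, whose partner at 17614580 on chromosome 4 is the annotated first base of the lncRNA gene MED28-DT. The longest was that of INTS9, part of the endonuclease, with HMBOX1. Members with no divergent call included MED9 and MED10 of the middle module, MED16 and MED25 of the tail, CDK8, INTS2, INTS8 and INTS15.

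For some members the divergent partner was the start of another protein-coding gene. A head-to-head protein-coding neighbour, with its end at most 1000 bp upstream or 500 bp downstream of the promoter call, was found for 11 of 44 members (25.0%, interval 14.6 to 39.4%), beside 1941 of 8424 called genes (23.0%). There were 6 Integrator and 5 Mediator genes among them. INTS13 faced FGFR1OP2, whose call at 26938470 lay at 0 bp from its annotated start and 152 bp from the INTS13 call. INTS7 faced DTL, a substrate receptor of a ubiquitin ligase, and INTS12, a subunit with a PHD finger, faced GSTCD, with the neighbour's end 203 and 122 bp from the member's call. INTS11, the catalytic endonuclease, faced CPTP at 143 bp, INTS14 faced SLC24A1 at 232 bp, and INTS9 faced HMBOX1 at 193 bp. The HMBOX1 call itself lay 279 bp inside the annotated end of HMBOX1. In the head module MED22 faced RPL7A, a ribosomal protein gene, at 101 bp. MED19 faced TMX2 at 380 bp and MED31 faced C17orf100 at 199 bp. The neighbours named so far were all called within 500 bp of that end. For HMBOX1 and C17orf100 the orientation itself was taken from that call, so their being called is not an independent observation. The exception was MED29, whose neighbour PAF1, a subunit of the PAF elongation complex, ended 273 bp from the MED29 call and had no call within 500 bp of that end.

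Some members had an antisense call downstream of the promoter call. Within 1500 bp downstream of the promoter call, 6 of 44 called members (13.6%, interval 6.40 to 26.7%) had a call of the other strand, beside 21.6% of all called protein-coding genes, a value within that interval. They were MED7, MED11, MED14, CDK19, INTS6 and INTS10. In MED14, CDK19 and INTS6 such a call lay between the sense calls, and so upstream of the inner sense call. In MED11, a small head subunit in a gene of 2180 bp, the antisense call at 4731643 lay 215 bp inside the gene and was the only call beside the promoter call. All 3 antisense calls of CDK19 fell inside AMD1, a gene for an enzyme of polyamine synthesis that begins within CDK19 on the other strand, and the innermost, at 110814619, lay 2 bp inside the annotated start of AMD1. A forward call 108 kb inside INTS4, at 77886458 on chromosome 11, lay in the overlapping gene AAMDC. A reverse call at 62646606, just past the left-hand end of INTS5, lay 7 bp inside the start of GANAB, the next gene on that side.

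Motifs were counted on both strands of the 300-base windows, at the outermost start of each gene in the promoter table. They were counted for the 36 members in that table and for 15812 protein-coding genes. That start lay 196 bp inside the outer gene end in MED20 and 351 bp inside it in INTS13. The windows of CCNC and MED23 held no call on the strand of the gene, although both genes count as called. CCGGAAG, a core of ETS family sites, was present in 11 of 36 member windows (30.6%, interval 18.0 to 46.9%), beside 14.1% of all windows and 24.4% of those of called genes. The NRF1 motif, with any base at its centre, was present in 9 of 36 (25.0%, interval 13.8 to 41.1%), beside 8.60% of all and 15.2% of called genes. AAGATGGC, the core of YY1 sites, was present in MED1, MED16, MED18, MED25 and MED29 (13.9%, interval 6.08 to 28.7%), beside 3.86% of all and 7.02% of called genes. CCGGAAG ends in the letters with which AAGATGGC begins, but 0 member windows held them overlapped in one orientation. For these 3 motifs the share of called genes lay within the interval of the members. Among the 33 called members alone the shares were 33.3%, 27.3% and 15.2%. The share of called genes still lay within each interval, but close to the lower limit for NRF1 (15.1%) and AAGATGGC (6.65%).

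Among the other motifs, GGGCGG, which SP and KLF factors bind, was present in 24 of 36 member windows (66.7%), beside 58.3% of all and 73.8% of called genes, and CCAAT in 16 (44.4%), beside 36.4% and 39.5%. AGATAA, the form of GATA sites bound by GATA1 in red cell precursors, was present in 1 member window, that of MED1 (2.78%, interval 0.492 to 14.2%), beside 7.63% of all and 4.27% of called genes. MED1 is the Mediator subunit known to bind GATA1 and nuclear receptors. TATAAA was found in MED7 and MED16 (5.56%), beside 9.75% and 5.04%, CACGTG in CDK8, INTS6 and MED13L (8.33%), beside 8.82% and 11.5%, and TGACGTCA in INTS7 and MED18 (5.56%), beside 2.56% and 3.93%. In a shorter window, from 100 bp before to 50 bp after the start, TATAAA was present in 0 of 36 member windows, beside 6.03% of all and 2.50% of called genes, and TGACGTCA in 0 of 36, beside 1.92% and 2.85%, so that their difference from called genes turned round. AAGATGGC was then present in 3 of 36 (8.33%), beside 3.02% and 5.73%. A match is a run of letters and does not show binding. The AGATAA of MED1 lies on the strand opposite to the gene, just upstream of the call, and reads as ttatct near the left end of the window printed here, with the called base and the next in capitals.
MED1, chr17:39451242-39451282, reverse strand: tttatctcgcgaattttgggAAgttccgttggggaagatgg

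Genes that work with these complexes were called at their ends too. Of the Integrator partners, 9 of 10 had a promoter call, beside 42.2% of all protein-coding genes, among them NABP1 and NABP2, single-stranded DNA-binding proteins, INIP, PPP2R1A and PPP2CA, the scaffold and a catalytic subunit of PP2A, BRAT1 and WDR73, with offsets between -1 and 11 bp. PPP2CB, the other catalytic subunit of PP2A, had 0 calls on either strand. Among pausing and elongation factors, the offset was -1 bp in SUPT5H and in NIPBL, which loads cohesin, and 11 bp in CDK9, the kinase that releases paused polymerase. The NELF subunits NELFA, NELFB, NELFCD and NELFE had offsets of 4, 10, 21 and 9 bp. Of the pausing and elongation factors named here, only ELL2, an elongation factor, was called without a divergent partner. Among all called protein-coding genes 66.0% had a divergent partner.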

How the data were processed

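PRO-seq libraries of 5 samples were made by the authors from run-on RNA labelled with biotin. Per the submitters' processing notes, the build was hg38 and the tools included deepTools 3.5.4, SAMtools 1.17, Picard and BWA 0.7.16a. Per the file headers, start sites were called with TSScall on 1 sorted and de-duplicated alignment. The read minimum is not given in the sources used here. Scores deposited by the authors were all 0, so calls could not be ranked and depth is unknown. The smallest gap between calls of one strand was 206 bp.

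Gene ends, orientations and promoter windows came from RefSeq tables of GRCh38.p14, which shares its primary coordinates with hg38. Of the 48 members, 36 had an orientation there. MED13 had none, and the other 11 took that of their promoter call. Sequences are those of the RefSeq promoter table, credited to GRCh38.p14. Intervals are Wilson 95% intervals. No test was run, because there is 1 set of calls. The members, lists and motifs were chosen with earlier results of these data known. Some genes that are no members are not reported here. Every member could be named. Full values were given to members with no promoter call, 2 or more sense calls, inner antisense calls, head-to-head neighbours or a paralogue. The procedure was tested on simulated data. Windows, orientation, merging, position and motif length were varied. Python was version 3.11.15, with pandas 2.3.3 for tables, scipy 1.17.1 and numpy 2.4.6 for intervals and matplotlib 3.10.9 for plots.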

Additional observations from a re-analysis of the deposited data

How the results depend on the processing

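Of 43 values under alternatives, 31 stayed within the error of the reported value and 12 moved. With any call inside a gene or within 500 bp of it counted, 97.9% of members and 97.0% of Mediator genes had one, beside 53.7% of all protein-coding genes. The share of all protein-coding genes was 37.1% with a window of 100 bp, 44.8% with 1000 bp, 43.9% with the annotated orientation only and 47.9% with any start of the promoter table, and the share of members lay between 87.5% and 93.8% under those settings. Members with 2 or more calls on their own strand numbered 2 after merging within 500 bp, with no merged share of all genes to set beside them. The pyrimidine-purine share of members was 42.4% at 1 base downstream and 6.06% at 1 base upstream along the strand. In the shorter motif window, 100 bp before to 50 bp after the start, TATAAA and TGACGTCA were present in 0% of member windows. Promoter-table starts, the alternatives for all protein-coding genes and positions along the strand were chosen after seeing the data. No paired analysis was possible because the lists have no column per library. The number of reads behind a call is unknown, so a missing call cannot be told apart from one below the caller's minimum.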

Other observations

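Of 21 pseudogenes of members, 0 had a call inside or within 500 bp, among them MED28P8, INTS4P1 and INTS4P2. Of 6 lncRNA genes named after members or after INTS6L, 4 had one, namely MED28-DT, INTS6-AS1, MED14OS and INTS6L-AS1, whereas MED8-AS1 and MED4-AS1 had 0. The call counted for INTS6L-AS1 is the promoter call of INTS6L itself. No share over all pseudogenes or all lncRNA genes stands beside these counts, so they do not show a trait of the members. INTS2 and MED13 are neighbours on chromosome 17, 14.6 kb apart, and the promoter call of INTS2 was the nearest reverse call to the left of MED13. INTS13 and MED21 lie 84.2 kb apart on chromosome 12, and both were called.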
